A study of Mus musculus with 11 samples.

Results

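Wide RING1B and CBX7 domains are stretches of chromatin that RING1B and CBX7 occupy together without a break in the RING1B peak. They were chosen by 2 measured values, a RING1B peak width of at least 5000 bp and an overlap of at least 1 bp with a CBX7 peak, and 381 of the 4180 RING1B peaks met both. All RING1B peaks of that width overlapped a CBX7 peak, so the second value removed none. Of the other RING1B peaks, 3380 narrower ones overlapped CBX7 and 419 did not. The widths, the RING1B scores and the presence of CBX7 in these domains are therefore descriptions of the choice and not findings. The series holds 7 ChIP-seq samples and 4 RNA-seq libraries of mouse embryonic stem cells (ESCs) of the E14Tg2A line, grown without feeder cells on gelatin in serum and leukemia inhibitory factor. RING1B and CBX7 were each profiled in 1 ChIP of wild-type cells. CBX6 was profiled by 2 HA ChIPs, labelled R1 and R2, in an ESC line whose endogenous Cbx6 gene was engineered with CRISPR-Cas9 to carry 3 HA tags, and the peak lists of the HA ChIP in untagged cells and of the IgG ChIPs were not analysed here. For RNA, 2 libraries came from cells infected with a control hairpin (shCtl) and 2 from cells with a hairpin against Cbx6 (shCbx6), on the same E14Tg2A background. Which of the Cbx6 hairpins each library carried is not given in the sources used here, and nothing says that the 2 libraries of a group came from separate infections, so p-values measure only the spread between these libraries.

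Polycomb repressive complex 1 (PRC1) places ubiquitin on lysine 119 of histone H2A through RING1A or RING1B, and it holds developmental genes silent in ESCs. In its canonical forms a CBX protein reads trimethylated lysine 27 of histone H3, the mark of Polycomb repressive complex 2, and brings the complex to chromatin. CBX7 is the main CBX protein of canonical PRC1 in ESCs, and CBX6 is a less studied member of the same family. The paper reports that CBX6, unlike CBX7, reaches chromatin without need of this histone mark. It also reports CBX6 bound to members of both canonical and non-canonical PRC1, and RING1B largely kept in place after CBX6 depletion. None of these points was tested here. Polycomb targets in these cells are mostly CpG-rich regions around gene starts.

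The DNA of the domains is shown first through its most CpG-dense stretches of 200 bp outside annotated untranslated regions, with every CpG in capitals, on the plus strand of mm9. The set was picked to span the binding patterns described later. The first, at chr11:96160610-96160809, overlaps coding sequence of Hoxb6 and lies in the widest domain without a peak in the second CBX6 list. It holds 29 CpG, and all 200 bases were under CBX7 and under the first CBX6 list.
Hoxb6 stretch: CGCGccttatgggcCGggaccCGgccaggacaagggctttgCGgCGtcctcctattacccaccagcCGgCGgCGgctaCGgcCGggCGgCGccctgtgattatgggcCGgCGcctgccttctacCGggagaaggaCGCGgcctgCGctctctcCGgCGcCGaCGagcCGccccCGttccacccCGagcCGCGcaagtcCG
The second lies at chrX:45698423-45698622 within an intron of Bcorl1, in a domain without a peak in the first CBX6 list. It holds 38 CpG, 68 of its bases were under CBX7, and none was under either CBX6 list although the second list had peaks elsewhere in the domain.
Bcorl1 stretch: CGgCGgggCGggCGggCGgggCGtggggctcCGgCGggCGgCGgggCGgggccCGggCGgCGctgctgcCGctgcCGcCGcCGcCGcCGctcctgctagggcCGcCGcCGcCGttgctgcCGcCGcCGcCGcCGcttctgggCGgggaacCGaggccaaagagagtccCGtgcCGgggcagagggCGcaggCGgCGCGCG
The next pair belong to genes with opposite differences between the RNA groups. The Lef1 stretch, at chr3:130809002-130809201, lies outside annotated genes, 4288 bp upstream of the Lef1 start, and holds 30 CpG. The Vax2 stretch, at chr6:83661302-83661501, overlaps coding sequence of Vax2 and holds 25 CpG. Both were wholly under CBX7 and both CBX6 lists.
Lef1 stretch: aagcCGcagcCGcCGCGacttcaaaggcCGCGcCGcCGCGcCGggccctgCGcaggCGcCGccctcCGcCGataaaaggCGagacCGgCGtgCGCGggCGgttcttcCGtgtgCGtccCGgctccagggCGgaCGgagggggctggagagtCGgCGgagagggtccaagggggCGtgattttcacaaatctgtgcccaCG
Vax2 stretch: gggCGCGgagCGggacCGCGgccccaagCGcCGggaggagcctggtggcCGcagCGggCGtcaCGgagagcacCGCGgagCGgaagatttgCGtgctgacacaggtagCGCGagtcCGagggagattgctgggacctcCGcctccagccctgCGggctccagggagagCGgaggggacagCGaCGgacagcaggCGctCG
Each stretch was picked for its CpG, so the number of CpG in it is part of the choice.

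Over all 381 domains the CpG density was 4.01 per 100 bp, against 0.834 in the genome and 4.97 in the narrower RING1B peaks with CBX7. A CpG island, taken here as bases in windows of 500 bp with at least 55% G and C and an observed to expected CpG ratio of at least 0.65, was found in 378 domains (99.2%), and 295 (77.4%) held 2 or more separate islands. Among the narrower peaks 92.4% held an island and 7.51% held 2 or more. A wide domain held a median of 320 CpG and 3283 bp of island, and a narrower peak 112 CpG and 1274 bp. Islands nonetheless took up a smaller part of the wide domains, 40.5% of their bases against 54.1% in the narrower peaks and 0.913% in the genome. The HoxA domain held 14 islands, the highest number, with 1480 CpG. The 3 domains without an island, named after their values were seen, were at Hoxb13, at Pax6 and at a place without a gene. Wider windows hold more CpG by length alone, so the counts per domain describe the domains and are not a comparison at equal length.

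**Figure D1:**
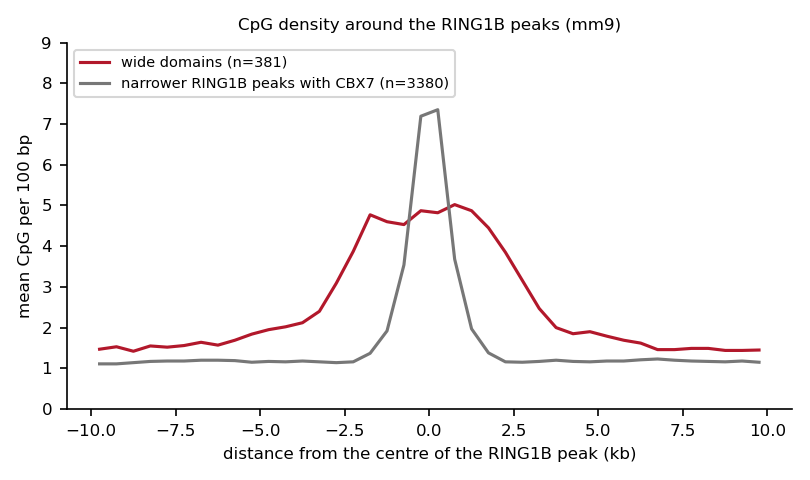
Mean CpG per 100 bp in bins of 500 bp, plotted against the distance from the centre of the RING1B peak up to 10 kb on either side, for the 381 wide domains (red) and the 3380 narrower peaks with CBX7 (grey). The narrower peaks show a single sharp maximum at their centre, and the wide domains a lower plateau over several kilobases.

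The domains were 5007 to 45341 bp wide, with a median of 7252 bp and an interquartile range of 5792 to 10069 bp, and covered 3268 kb in all. The widest, of 45341 bp, lay over the HoxA cluster at chr6:52146872-52192212 and held the annotated starts of 7 genes, among them Hoxa3, Hoxa5, Hoxa6, Hoxa7, Hoxa9 and Hoxa10, which pattern the body axis. The next were those of the HoxD cluster (28493 bp, chr2:74511816-74540308, from Hoxd8 to Hoxd12) and of the HoxB cluster (27829 bp, chr11:96139818-96167646, from Hoxb5 to Hoxb8). Outside the Hox clusters the widest lay at Uncx (23519 bp), a homeobox gene of the somites. A second HoxA domain of 21178 bp held the start of Hoxa2. After it came Six3 (20352 bp), a gene of forebrain and eye, Hand2 (17927 bp) of heart and limb, Pax7 (17862 bp) of muscle progenitors, Nkx2-2 (17598 bp) of the ventral neural tube, and Pax2 (17416 bp) of the kidney. All 10 hold genes for transcription factors of the embryo. Removing the 21 domains with a Hox gene left 360 with a median width of 7202 bp, so the Hox clusters set the upper end of the widths but not their middle.

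At the threshold, the narrowest members lay at Bai2 (5032 bp), Csmd1 (5017 bp) and Esx1 (5007 bp). The widest peaks left out were 4982 bp at Nkx1-2, 4982 bp with no gene, and 4981 bp at Scrt1. CBX6 replicate 2 covered 96.9, 80.1 and 73.0% of the 3 inside and 100.0, 94.3 and 71.5% of the 3 outside. CBX6 replicate 1 covered 73.2, 30.4 and 0.0% of the 3 inside and 59.7, 49.8 and 54.6% of the 3 outside.

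Genes were assigned to a domain where it touched the window from 2.5 kb upstream of the start to the transcription end, in the mm9 annotation of GENCODE. Of the domains, 361 (94.8%) had a gene and 311 (81.6%) held a start, and 423 genes were assigned, 378 of them with their start inside. A single start lay in 256 domains, 2 in 49, and 3 or more in 6. These 6 were the HoxA, HoxD and HoxB domains, 1 of 7862 bp with Ccr10, Cntnap1 and Plekhh3, 1 of 6345 bp with Dio3, Dio3os and Mir1247, and 1 of 5679 bp with Gm996, Mamdc4 and Phpt1. The domains extended a median of 3304 bp upstream and 4520 bp downstream of a start. For 131 of the 378 genes (34.7%) the whole gene lay inside, against 4.54% for genes whose start lay in a narrower peak, a difference that the choice by width favours. Genes with their start in a wide domain were shorter, with a median length of 10108 bp, than genes with their start in a narrower peak (45138 bp) and all placed genes (16052 bp). Chromosome 2 held 53 domains, chromosome 11 held 32 and chromosome 5 held 29.

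By symbol, 237 of the 423 genes (56%) belonged to transcription factor classes, against 6.05% of the genes of narrower peaks and 2.87% of all placed genes. The Hox genes stood highest, with 32 of the 39 genes of the 4 clusters. Of the other homeobox genes 94 of 177 were in wide domains, and of the T-box genes 11 of 17, including T, the marker of nascent mesoderm, and Tbx5 of the heart. Forkhead factors followed with 17 of 44 genes, among them the endoderm factors Foxa1 and Foxa2, and SOX factors with 7 of 18, among them Sox17 and Sox9. Of the GATA and other zinc finger factors 29 of 134 were members, with Gata2, Gata3, Gata4 and Gata6. Of the bHLH factors 21 of 70 were members, including the neurogenic Neurog1 and Neurog2. Signalling genes were fewer, with 7 of 63 genes of the WNT list, 5 of 71 of the TGF-beta and BMP list, and 3 of 11 of the hedgehog list, which were the ligands Dhh, Ihh and Shh. Channel and receptor genes were 0.709% of the wide-domain genes (Grid1, Kcnk9 and Slc32a1) but 8.11% of the genes of narrower peaks and 3.11% of all. Among the Polycomb genes Bmi1 and Cbx8, which code for subunits of PRC1, were members, as was the cell-cycle inhibitor Cdkn2a. The other 146 genes were in no class. The shares of gene classes are descriptions and were not tested.

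CBX6 was listed in nearly all of the domains by either replicate. Replicate 1 had a peak in 373 (97.9%, 95% Wilson interval 95.9 to 98.9%) and replicate 2 in 379 (99.5%, 98.1 to 99.9%), and 97.4% had both. In the narrower peaks the shares were 78.1% and 83.3%, and a wider interval is more easily hit by 1 peak. Per base, replicate 1 covered 62.4% of the wide domains and 59.8% of the narrower peaks, and replicate 2 covered 92.1% and 67.5%. The Wilson intervals cover counting error over domains only, since each CBX6 list is 1 ChIP.

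How CBX6 lay within the domains depended on the replicate. Replicate 2 covered 92.1% of the bases, with a median of 95.3% of a domain and an interquartile range of 89.5 to 98.6%, and replicate 1 covered 62.4%, with a median of 64.6% and a range of 48.7 to 78.7%. At least 90% of the domain was covered in 278 domains by replicate 2 and in 26 by replicate 1. Replicate 2 covered more than replicate 1 in 359 domains and less in 22. Replicate 1 listed 2 or more CBX6 peaks in 248 domains (65.1%) and 10 in the HoxA domain, where replicate 2 listed 2, of which 1 was 40544 bp wide. Replicate 2 also split many domains, with 2 or more peaks in 176 of the 371 on autosomes (47.4%), against 247 (66.6%) for replicate 1. The 2 lists shared 371 of the 381 domains but differed in extent, and across all domains the shares covered had a Spearman correlation of 0.01. The lists also differed in make-up, with 21865 peaks in replicate 1 and 5103 in replicate 2, and the numbers of reads behind them were not analysed here. The part of read depth and peak calling in the difference was not tested.

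Coverage by replicate 2 grew with the width of the RING1B peak. It was 33.2% of bases in peaks under 1.5 kb, 62.5% from 1.5 to under 3 kb, 81.7% from 3 to under 5 kb, and in the wide domains 89.3% from 5 to under 6 kb, 90.2% from 6 to under 8 kb, 93.8% from 8 to under 12 kb and 93.7% from 12 kb. Replicate 1 went from 36.7% through 58.6% to 65.6% in the narrower classes and stayed between 60.7 and 63.7% in the wide ones. Within the wide domains the Spearman correlation of width with the share covered was 0.29 for replicate 2 and 0.01 for replicate 1 (n = 381 domains that share 1 library). Both lists gave their lowest coverage in peaks under 1.5 kb. Beyond 5 kb the classes differed by a few percent of bases in either list, and a rank correlation with width was seen in replicate 2 alone.

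**Figure D2:**
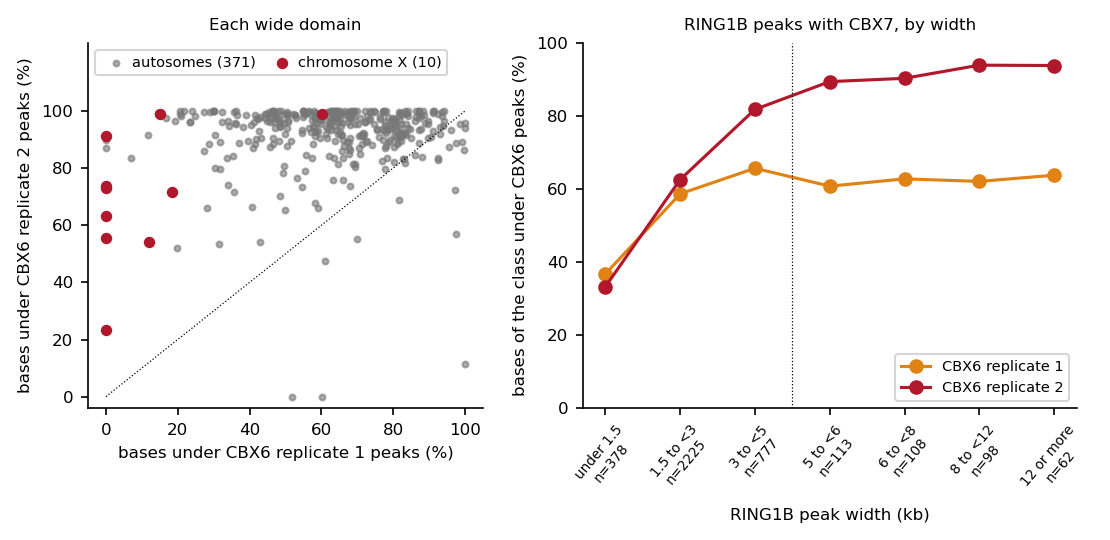
Left, the share of each wide domain's bases under CBX6 peaks in replicate 1 (x axis, percent) and replicate 2 (y axis, percent), with the 10 domains of chromosome X in red and the dotted line at equal shares. Right, the share of bases under CBX6 peaks for classes of RING1B peak width (kb), where the dotted line marks 5 kb and replicate 2 rises to 93.7% while replicate 1 levels off near 63.7%.

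The widest CBX6 peaks of replicate 2 fell in these domains. Of its 289 peaks of at least 5000 bp, 270 (93.4%) overlapped a wide domain, and they lay in 263 domains (69%). In replicate 1, 65 of 142 such peaks (45.8%) did. Peak scores, which MACS gives as minus 10 times the log10 of p, had a median of 1377 for replicate 2 peaks inside the domains and 133 elsewhere, and 185 and 94.2 for replicate 1. The score 3100 recurs in the lists although a few peaks exceed it, peaks that carry it were not ranked, and 126 of the 134 replicate 2 peaks with it overlapped a wide domain. In both lists CBX6 peaks were therefore wider and higher in score inside the domains.

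Only 2 domains had no peak in replicate 2, and they were neighbours in the HoxB cluster. One was the domain of 27829 bp from Hoxb5 to Hoxb8, and the other, of 11998 bp at chr11:96170948-96182945, held Hoxb4 and the microRNA gene Mir10a and reached the window of Hoxb3. A list without a peak does not show the reads, so whether signal was absent there or a peak was not called cannot be told apart. The nearest replicate 2 peaks ended 30 bp from the first and began 518 bp from the second, the latter being 12778 bp wide. Replicate 1 covered 60.2% and 51.7% of the pair, and a CBX7 peak of 56031 bp ran across both. The gap in replicate 2 was not seen at HoxA, where the same list covered 99.8%, or at HoxD, where it covered 95.7%. The third lowest share in replicate 2 was at Pdgfa, a growth factor gene (6232 bp, 11.5%), where replicate 1 covered 100.0%. Its RING1B score was 89.41, and CBX7 covered 10.1% of it, the lowest share of any domain. At the other end, 39 domains were covered to 100.0%, the widest at Gata3 (15020 bp), Foxb1 (13582 bp) and Dlx5 (13543 bp).

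Chromosome X accounted for most of the domains without a replicate 1 peak. There were 8 such domains, and 6 were among the 10 on chromosome X. The widest were 3 at Bcor, of 6723, 6380 and 6186 bp, and Bcor codes for a corepressor of a variant PRC1. The others on the chromosome, named after their values were seen, were at Bcorl1, Pcdh19 and Esx1, and those elsewhere were at Lmo4 and Dmbx1. Replicate 2 had a peak in all 10 and covered 71% of their bases, against 92.5% in the 371 other domains. For replicate 1 the values were 10.4% and 63.4%. CBX7 covered 94.2% of the bases on chromosome X and 96.1% elsewhere. The narrower peaks showed the same order, since replicate 1 had a peak in 11.1% of the 90 on chromosome X and in 79.9% of the 3290 elsewhere, and replicate 2 in 56.7% and 84%. Coverage by both CBX6 lists was thus lower on chromosome X, and by much more in replicate 1. The wide domains there were also narrower, with a median width of 6204 bp against 7317 bp elsewhere. Fewer of them had the RING1B score of 3100 (40% against 74.7%), and CBX7 covered less of the narrower peaks (85.6% against 90.7% of bases). What sets the chromosome apart was not tested.

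**Figure D3:**
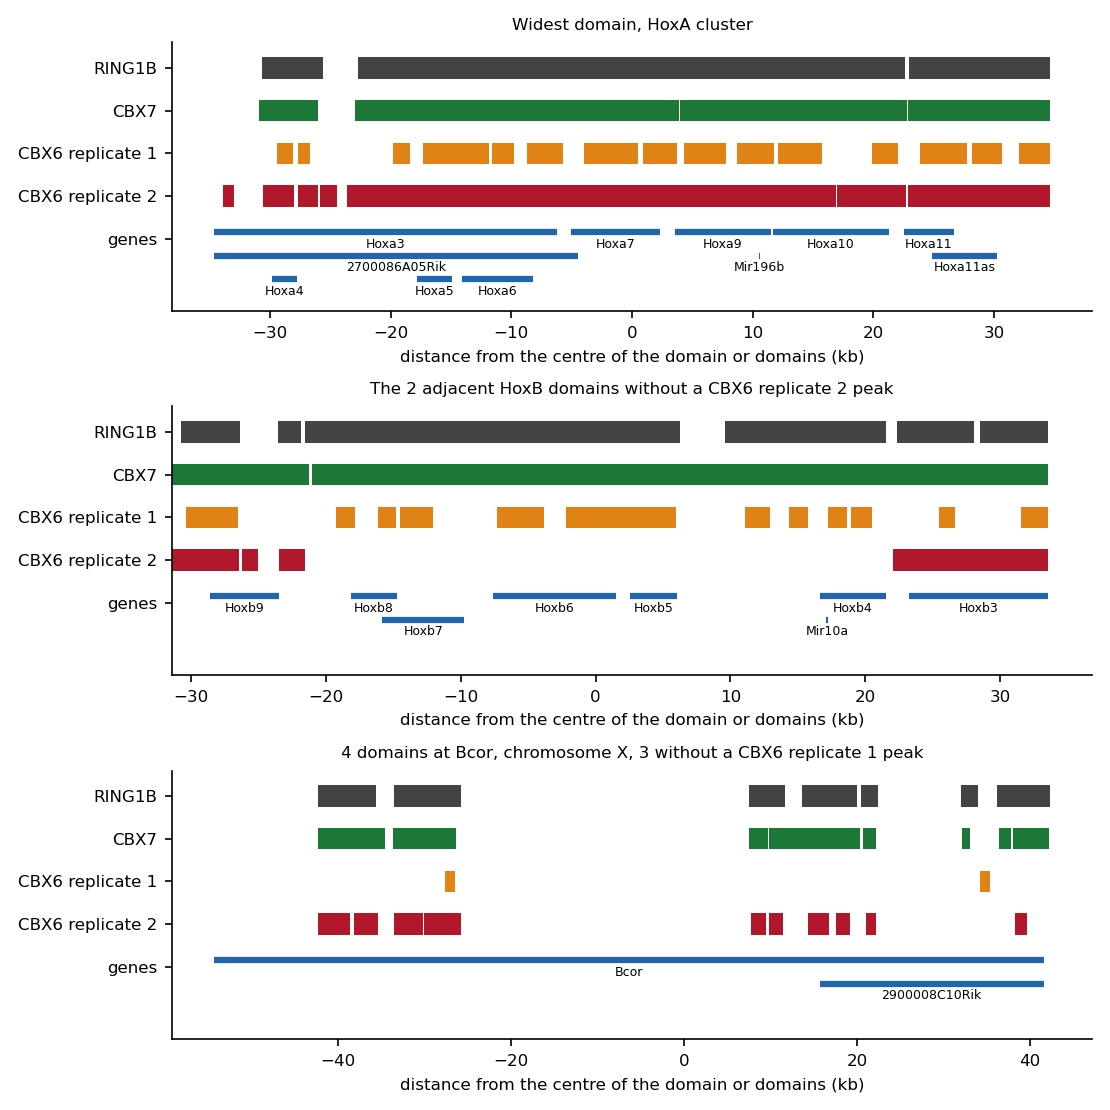
Peaks of RING1B, CBX7 and the 2 CBX6 replicates, with genes, against the distance in kb from the centre of the widest domain (top, HoxA), of the 2 adjacent HoxB domains (middle) and of the 4 domains at Bcor (bottom), clipped 12 kb beyond their ends. Bars are listed peaks and carry no height. Replicate 2 spans the HoxA domain with 2 peaks and is absent between the outer HoxB peaks, and replicate 1 has 1 peak within the 4 Bcor domains.

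In control ESCs most genes of the domains were at very low levels. The median over the 423 genes was 0.0409 FPKM in shCtl replicate 1 and 0.0324 in replicate 2, and 0.0381 for the mean of the libraries, against 0.232 for the 2775 genes of narrower peaks alone and 0.994 for all 21921 placed genes. Under 1 FPKM were 363 genes (85.8%, Wilson interval 82.2 to 88.8%), against 71.5% and 50%. At 0 in all 4 libraries were 55 (13%), against 4.72% of the genes of narrower peaks and 18.3% of all placed genes. All 32 Hox genes were under 1 FPKM, the highest at 0.422. In the shCbx6 libraries the medians were 0.0462 and 0.0618 FPKM, and 359 genes (84.9%) were under 1 FPKM in the mean of the 2. RNA was measured over many cells, so few cells with a transcript and little transcript per cell cannot be told apart.

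**Figure D4:**
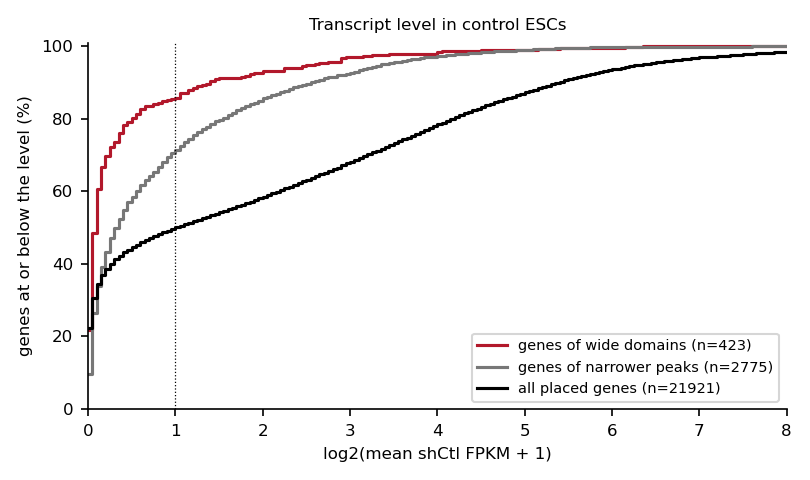
Share of genes (y axis, percent) at or below each level, as log2 of mean shCtl FPKM plus 1 (x axis), for the 423 genes of wide domains (red), the 2775 genes of narrower peaks with CBX7 only (grey) and all 21921 placed genes (black). The dotted line marks 1 FPKM, below which 85.8% of the wide-domain genes, 71.5% and 50% lie.

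The exceptions were 60 genes at or above 1 FPKM in shCtl. Those with the highest levels were Bub3, a spindle checkpoint gene, at 70.7 and 86.0 FPKM in the 2 shCtl libraries, and Grb10, an imprinted adaptor gene, at 62.0 and 73.3 FPKM. Bub3 started outside its domain, which held the start of Hmx2. Next were Phpt1 (34.8 and 45.4 FPKM), a phosphatase gene, Tbx3 (34.3 and 34 FPKM), a T-box factor of naive pluripotency, and Pdgfa (28.6 and 27.7 FPKM). Gbx2 (20.8 and 21.0 FPKM), Foxd3 (16.0 and 15.0 FPKM), Dmrt1 (13.8 and 16.2 FPKM), Lmo4 (11.9 and 17.3 FPKM) and Zfp423 (10.1 and 9.61 FPKM) completed the first 10. Gbx2 and Foxd3 are factors of undifferentiated ESCs, and the start of Dmrt1 lay outside the domain of Dmrt3.

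Domains of expressed genes were covered less by CBX7. The rule asked only for a touch of CBX7, so the share covered was free to vary. Where the highest gene starting inside was under 1 FPKM (264 domains), CBX7 covered a median of 99% of the domain, and at least 90% in 93.2% of them. For 40 domains with such a gene from 1 to under 10 FPKM the median was 96.4%, with at least 90% in 72.5%, and for 7 domains at 10 FPKM or more the median was 64.8%. In these 7, CBX7 covered 97.0% at Grb10, 91.5% at Phpt1, 69.3% at Foxd3, 64.8% at Gbx2, 58.6% at Lmo4, 52.3% at Tbx3 and 10.1% at Pdgfa. CBX6 replicate 2 followed the same order, with medians of 95.6, 94.9 and 71.5%, and covered at least 90% in none of the 7. Replicate 1 did not, with medians of 64.7, 68.5 and 48.4% and at least 90% in 6.06, 12.5 and 42.9%. The expressed group was small and narrower, with median widths of 7954, 6266 and 6091 bp, and the differences were not tested.

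Of the lineage genes that the study examined by ChIP-qPCR and that fell in wide domains, Gsc, Gata6 and Gata4 were under 1 FPKM in shCtl, while Eomes and the Tbx3 given above were higher. Gsc, a gene of the organizer, was at 0.156 and 0.0615 FPKM in shCtl, against 0.0326 and 0 in shCbx6. Gata6, an endoderm factor, was at 0.111 and 0.15 FPKM in shCtl, against 0.158 and 0.188 in shCbx6. Gata4 was at 0.426 and 0.393 against 0.416 and 0.504 FPKM, and its start lay outside the domain. Eomes was at 2.12 and 1.42 against 1.63 and 1.92 FPKM. For Gata6 both shCbx6 values were above both shCtl values, for Gsc both were below, and for Gata4 and Eomes the groups overlapped. Replicate 1 and replicate 2 of CBX6 covered 72.2 and 96.1% of the Gsc domain, 79.1 and 89.9% of that of Gata6, 56.5 and 100.0% of that of Gata4, and 91.0 and 100.0% of that of Eomes. Cbx8 (0.305 and 0.201 FPKM in shCtl) lay in a domain of 16614 bp, covered to 97.1% by replicate 2. This PRC1 gene was thus at a low level within a wide PRC1 domain of its own.

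Cbx6 itself, which checks the knockdown, was at 17.4 and 14.9 FPKM in the control libraries and at 9.53 and 5.4 FPKM in the knockdown. Both knockdown libraries were below both controls, and the log2 fold change was -1.06 (limma, adjusted p = 0.247). All changes were fitted on log2(FPKM + 1), a scale on which the differences of low genes are understated, over the 11577 genes whose mean reached 1 FPKM in shCtl, in shCbx6 or in both. With 2 libraries a group, an exact permutation test of 1 gene cannot go below p = 0.333.

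Among the 423 genes, 74 entered the fit, and 62 of these started inside their domain. In 50 both group means were at least 1 FPKM, 10 entered by shCtl alone and 14 by shCbx6 alone, and these last 24 had to differ to some degree. No member passed an adjusted p of 0.05 in limma, where 11 of all tested genes did (0.095%), and 29 members had an unadjusted p under 0.05, against 11.7% of all tested genes. Without shCbx6 replicate 1 limma called 16 members, and 3.39% of all tested genes, and without shCbx6 replicate 2 it called 1 member, Esrp1, and 0.306% of all. In these fits the lone shCbx6 library is assumed to vary like the shCtl libraries. By size, 30 members were at least 1.5-fold higher in the shCbx6 mean, where 7.64% of all tested genes were, and 16 at least 1.5-fold lower, where 6.56% were. In 28 of the 30 both shCbx6 libraries were above both controls, a pattern with that size in 6.35% of all tested genes, and in 15 of the 16 both were below, against 5.92%. The members were lower genes than the rest, with a median of 3.09 FPKM for the higher group mean against 11.8, and no comparison was made at matched levels. Of the 50 members at or above 1 FPKM in both groups, 17 were 1.5-fold higher and 7 lower, against 5.11% and 5.15% of all genes with that filter. Without shCbx6 replicate 2, 19 of the 68 members then tested were 1.5-fold higher, and the share of all genes so changed was not computed for that setting. The median log2 fold change of the 74 was 0.016, against -0.012 for all tested genes, and the median size without regard to sign was 0.51 against 0.17. That size includes the 24 that had to differ.

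The members with the highest values in shCbx6 relative to shCtl were of varied function. Lef1, a transcription factor that acts at the end of the WNT pathway, was at 2.83 and 2.34 FPKM in shCtl, against 10.2 and 11.2 in shCbx6 (log2 fold change 1.71, SE 0.151, limma adjusted p = 0.0589, the lowest among the members). Its domain of 9283 bp was covered to 64.1% and 98.9% by CBX6 replicates 1 and 2. Esrp1, an epithelial splicing regulator, was at 4.23 and 4.68 against 17.7 and 26.3 FPKM (limma adjusted p = 0.0754), in a domain covered to 80.1% and 97.5%. Dusp4, a phosphatase that acts on MAP kinases, was at 2.09 and 2.51 against 9.31 and 14.2 FPKM, in a domain covered to 92.6% and 83.4%. The genes of this paragraph were chosen without overlap of the groups, so both shCbx6 values had to lie above both controls. Of these 3, the shCbx6 libraries lay closest to each other at Lef1. Otx2, a homeobox factor of primed pluripotency and the anterior epiblast, was at 3.42 and 4.65 FPKM in shCtl, against 15.3 and 30.4 in shCbx6, and CBX6 covered 23.3% and 96.0% of its domain. Tfap2c was at 2.84 and 2.21 against 7.41 and 9.04 FPKM, and Ccno at 0.397 and 0.499 against 2.48 and 3.7 FPKM. Sfmbt2, a Polycomb group gene of the placenta, was at 1.87 and 0.737 against 3.89 and 7.05 FPKM. Igf2, an imprinted growth factor gene, had the highest log2 fold change, 3.02, but it rested mostly on shCbx6 replicate 2, with 0.173 and 0.359 FPKM in shCtl, against 2.35 and 30.5 in shCbx6. Its start lay outside the domain, which held that of Igf2as, and without shCbx6 replicate 2 its log2 fold change was 1.41. Igf2 and Ccno entered the fit by shCbx6 alone, so their direction was fixed by the filter.

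The members with the lowest values included genes at high levels in control ESCs. Vax2, a homeobox factor of the ventral eye, was at 5.96 and 6.17 FPKM in shCtl, against 1.29 and 0.365 in shCbx6 (log2 fold change -2.00, SE 0.275, limma adjusted p = 0.103). Vax2os, a noncoding gene that starts in the same domain on the other strand, was at 8.57 and 6.8 against 3.81 and 1.31 FPKM. Tbx3 was at 34.3 and 34 against 13.1 and 6.9 FPKM (log2 fold change -1.73, SE 0.287, limma adjusted p = 0.131). The domain of Tbx3 stood apart, with a RING1B score of 114.94 and 52.3% of its bases under CBX7, while CBX6 covered 97.3% in replicate 1 and 72.2% in replicate 2. Sema5b, an axon guidance gene, was at 4.44 and 2.99 against 1.04 and 0.209 FPKM. Islr2 was at 3.27 and 2.68 against 1.04 and 0.459 FPKM, with its start outside the domain. Zfp516 was at 7.62 and 9.31 against 3.91 and 4.52 FPKM, and Gbx2 at 20.8 and 21.0 against 13.5 and 10.3 FPKM. Gm2694, a noncoding gene beside Cbln1, was at 2.78 and 4.43 against 1.06 and 2.36 FPKM. These 8 were chosen without overlap of the groups, and in 6 of them shCbx6 replicate 2 was the lower of the knockdown libraries. Vax2, Sema5b and Islr2 entered the fit by shCtl alone, so their direction was fixed by the filter. None passed the adjusted threshold.

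**Figure D5:**
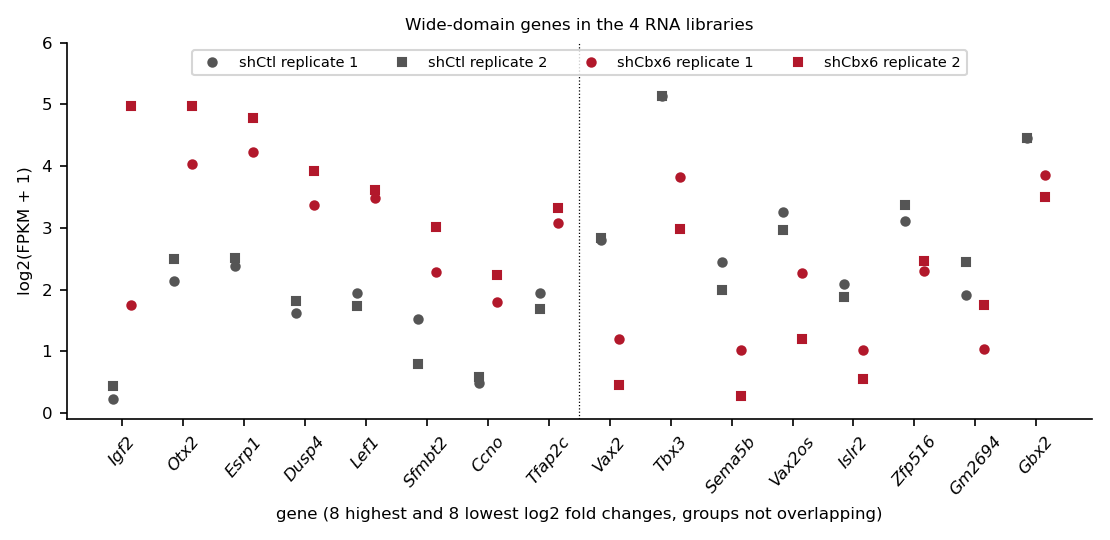
Level of 16 wide-domain genes, as log2 of FPKM plus 1 (y axis), in the 4 RNA libraries, with shCtl in grey, shCbx6 in red, replicate 1 as circles and replicate 2 as squares. The 8 genes left of the dotted line have the highest and the 8 to the right the lowest log2 fold changes among tested genes whose groups did not overlap, from Igf2 at 3.02 to Vax2 at -2.00.

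By class, the counts of tested members were small. Of 10 homeobox genes outside the Hox clusters 4 were at least 1.5-fold higher in the mean and 3 lower, where of all 42 tested genes of that class 7 were higher and 13 lower. Of 4 zinc finger factors 3 were higher (Bcl11a, Wt1 and Zic2, the last with groups that overlap) and 1, Sall3, was lower, and of all 80 tested in that class 14 were higher and 10 lower. Both tested WNT genes (Lef1 and Wnt7b) were higher, where of the 26 tested in the whole list 9 were higher and 7 lower. Both tested genes of the FGF and MAPK list (Dusp4 and Fgfr2) were higher, where of the whole list of 32 there were 7 higher and 0 lower. Among the genes counted here, Phox2a, Wt1, Wnt7b and Fgfr2 entered the fit by shCbx6 alone, and Lhx6 and Vax2 by shCtl alone, so their direction was fixed by the filter. The cell-cycle inhibitor gene Cdkn2a was at 2.96 and 1.93 FPKM in shCtl, against 3.05 and 4.9 in shCbx6. No channel or receptor gene of the domains reached the fit, where 230 of that class did among all genes. No Hox gene of the clusters reached the fit, whether in a wide domain or not. Of the 349 members below it, 55 were at 0 in every library, none exceeded 1.44 FPKM in any library, 76 had both shCbx6 values above both shCtl values and 41 both below. Of all genes below the fit, 14% and 7.97% did.

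The libraries also differed in markers of cell state beside these genes. All 8 ESC markers were at or above 1 FPKM in every library, and their summed level was 7599 and 8650 FPKM in shCtl, against 6895 and 5798 in shCbx6. A single marker made up most of each sum (4580 and 5397 FPKM in shCtl, 4544 and 3601 in shCbx6). The lowest marker was at 91.1 and 96.7 FPKM in shCtl, against 36.7 and 28 in shCbx6. Of 5 trophectoderm markers, 3 of which are wide-domain genes, 3 were at or above 1 FPKM in shCbx6 replicate 2 and 1 in each other library, and their sum was 2.23 and 1.66 FPKM in shCtl, against 2.53 and 13.3 in shCbx6. The sums were 26.4 to 39.5 FPKM for 5 neuroectoderm markers, 1.76 to 3.02 FPKM for 5 mesoderm markers and 1.84 to 2.72 FPKM for 6 primitive endoderm markers. For 6 fibroblast markers the sum was 1.72 and 1.69 FPKM in shCtl, against 1.33 and 4.58 in shCbx6, so that replicate 2 of shCbx6 was again the highest. The part of such cells in the values of the members was not tested.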

How the data were processed

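The authors aligned ChIP reads to mm9 with Bowtie and ran MACS on every ChIP sample. The deposited peak score is minus 10 times the log10 of p, and the lists give no read depth. RNA reads were aligned with TopHat, and the authors deposited FPKM per gene from Cufflinks, which also hold no read counts. Peaks were intersected by at least 1 bp, and coverage is the share of a domain's bases under listed peaks. Of 23288 symbols, 21921 were placed on the mm9 annotation (GENCODE M1), 772 of them by a synonym from RefSeq. Sequences were read from the mm9 genome. Expression was tested on log2(FPKM + 1) with limma 3.58.1 (R 4.3.3), with a variance trend and Benjamini-Hochberg adjustment over all tested genes, after a check on simulated data. Other thresholds, overlaps, filters and scalings and each library left out were tried. Named domains were the 10 widest, those at the width threshold, those with the highest, lowest or no CBX6 coverage, and those with 3 or more starts. Named genes were those of these domains, those of the study's ChIP-qPCR, the 10 highest in shCtl, and the 8 highest and 8 lowest log2 fold changes without overlap of the groups. A few items that these rules name are not reported here. The members and lists were chosen with earlier results of these data known. Python 3.11.15 was used for the intersections and matplotlib 3.10.9 for the plots.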

Additional observations from a re-analysis of the deposited data

How the results depend on the processing

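At a width of 4 kb there were 595 domains, and the genes' median was 0.054 FPKM with 84.1% under 1 FPKM. Of the 122 of these genes that were tested, 49 were 1.5-fold higher and 26 lower, where 7.64% and 6.56% of all tested genes were. At 6 kb the median was 0.028 FPKM with 88.8% under 1 FPKM. Of the 45 genes tested at that width 9 were 1.5-fold lower, against the same 6.56% of all, and the median log2 fold change was 0.140. With genes whose start lay inside, 86.8% were under 1 FPKM. CBX6 replicate 1 depended on the peak threshold, since 90.6% of domains and 54.9% of bases held CBX6 at a peak score of at least 100, and in 73.2% of domains CBX6 covered at least 50% of the bases. No filter on FPKM gave 2 limma calls, 164 genes higher and 79 lower among 423 tested. A minimum of 0.3 FPKM gave 46 higher among 118 tested, and a pseudocount of 0.1 FPKM gave 1 call among 74. Shares of all genes under these settings were not computed, so the counts cannot be read against them. With at least 1 FPKM in both groups, chosen after seeing the data, 17 were higher and 7 lower. Leaving out 1 library gave 0 to 16 limma calls, 19 to 31 genes higher, 15 to 17 lower, a median log2 fold change of -0.058 to 0.088, a median of 0.0324 to 0.0409 FPKM and 86.1 to 87.0% under 1 FPKM. With the replicate number as a block (replicate block), limma called 18 of the 74 members, among them Lef1 and Vax2. The share of all tested genes called with the block was not computed, so the 18 cannot be read against it. Shares of all genes 1.5-fold higher or lower with 1 library left out were not computed either. The libraries share only a number, with a correlation of same-numbered deviations of 0.27 over 11577 genes, and 2 pairs are too few to show a pairing. The log2 fold change turned sign when 1 library was left out for Bub3 (-0.17 to 0.25), Phpt1 (-0.17 to 0.21), Eomes (-0.17 to 0.20) and Lmo4 (-0.01 to 0.82). The other 60 recomputed values stayed within 1.5 times for counts, and within the interval or the spread between libraries for shares and medians. Causes were not tested. Read depth of the ChIPs and the counts behind FPKM were not analysed here, so no counting error is given for either.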

Other observations

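The 20 wide domains without a gene in the window were narrower than the rest, with a median width of 6007 bp and a range of 5114 to 10941 bp. All 20 had a peak in both CBX6 lists. CBX6 replicate 1 covered 49.3% of their bases and replicate 2 covered 90.1%, against 62.4% and 92.1% over all 381 domains. CBX7 covered 93.6%.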
